A study of Mus musculus with 16 samples.

Results

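Ephrins and Eph receptors were followed in heart RNA from mice without CAP2, an actin-binding protein that helps filaments turn over. The 10 genes described are Efnb1, Efnb2, Efnb3, Efna1, Efna5, Ephb1, Ephb3, Ephb4, Epha4 and Epha7, out of 55972 gene identifiers in the 2 deposited tables and 22 Eph and ephrin genes in all. They were picked by symbol, and the family was picked because Efnb3 was lower in both experiments, so the Efnb3 values describe that choice and are given without a test. All hearts came from mice of the C57BL/6 strain. Experiment A compared 3 CAP2 -/- females with 3 wild-type females, all aged 86 weeks. Experiment B compared mice aged 13 weeks, all homozygous for the loxP allele. One group carried Myh6-Cre, a Cre recombinase driven by a cardiomyocyte promoter (Cre+, 3 females and 1 male with values), and the controls lacked Cre (3 females and 2 males). Cap2 in heart cells other than cardiomyocytes is not targeted by this promoter. Mice with Cre and an intact Cap2 gene are not among its groups, so effects of Cre and of losing Cap2 cannot be told apart. The labels number the replicates but do not say that each is a separate animal. If they are not, the p-values speak of the spread among these libraries alone, some or all of which may be technical.

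Eph receptors form the largest family of receptor tyrosine kinases, and their ligands, the ephrins, are bound to the cell membrane, so that signalling takes place where cells touch. Ephrin-A ligands are held by a lipid anchor and prefer EphA receptors, while ephrin-B ligands span the membrane and prefer EphB receptors, and both sides of the contact can signal. In the heart and its vessels, ephrin-B2 is a marker of arterial endothelium and its receptor EphB4 of venous endothelium, and Eph signals are known to reshape the actin filaments of the cells that receive them.

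The last coding bases of the 3 ephrin-B genes are shown because they encode the cytoplasmic end through which these ligands bind adaptor proteins with PDZ domains, and because similar copies can share reads. The sequences were taken from the GENCODE transcripts, mm10, 60 bases each with the stop codon, and capitals mark bases that differ from Efnb3.
Efnb3: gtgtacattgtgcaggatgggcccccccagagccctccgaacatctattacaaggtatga
Efnb1: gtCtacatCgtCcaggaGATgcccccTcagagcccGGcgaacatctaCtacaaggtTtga
Efnb2: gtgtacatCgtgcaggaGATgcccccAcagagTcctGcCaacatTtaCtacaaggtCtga
Efnb1 and Efnb2 each shared 49 of these 60 bases (81.7%) with Efnb3. Over the whole transcripts, the longest run shared by Efnb3 and Efnb1 was 22 bases, that shared by Efnb3 and Efnb2 was 18 bases, and that shared by Efnb1 and Efnb2 was 17 bases. No annotated gene overlapped Efnb3 on the genome (ENSMUSG00000003934, chromosome 11, 69554092 to 69560205, minus strand, mm10).

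Cap2 marks the loss in both experiments. It stood at 8.36, 16.1 and 12.0 CPM (counts scaled to a common library total) in CAP2 -/- hearts, against 197, 217 and 228 CPM in wild type (log2 fold change -4.13, SE 0.20, edgeR adjusted p = 1.00e-07). In experiment B it averaged 65.0 ± 24.2 normalized reads in Cre+ hearts (SD, n = 4), against 391 ± 288 in controls (SD, n = 5; log2 fold change -2.22, SE 0.36, limma adjusted p = 0.0161). Its groups did not overlap in either experiment. Depth in experiment A was 10750175 to 27440478 estimated counts per library. The nuclear genes of experiment B summed to 3815980 to 4044523 normalized reads per library, and mitochondrial transcripts took 23.0% to 52.7% of all normalized reads in Cre+ hearts and 30.4% to 69.5% in controls. Heart identity was plain in all libraries, with 8 cardiomyocyte markers summing to 70582 to 82757 CPM in CAP2 -/- hearts, 76593 to 84657 CPM in wild type, 191860 to 288280 normalized reads in Cre+ hearts and 232309 to 353808 in controls. The median log2 fold change over all genes tested was 0.01 in experiment A and -0.12 in experiment B. TMM scaling brought the median of experiment B to -0.01, so its fold changes are read against that small downward shift.

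Efnb3 encodes ephrin-B3, a membrane-spanning ligand known best from the midline of the spinal cord and brain, where it repels growing axons. In experiment A it stood at 47.7, 36.5 and 55.1 CPM in CAP2 -/- hearts, against 120, 111 and 97.5 CPM in wild type. The means were 46.4 ± 9.33 CPM in CAP2 -/- hearts and 109 ± 11.1 CPM in wild type (SD, n = 3 each), a log2 fold change of -1.23 (95% interval -1.55 to -0.92), or 2.35-fold lower. The intervals given for Efnb3 take no account of its choice for a fall in both experiments, so they are not read as tests. Every CAP2 -/- library lay below every wild-type library. The authors' deposited table for experiment A gives -1.24. Between 511 and 866 estimated counts in CAP2 -/- libraries and between 1199 and 3317 in wild type lay behind these values.

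In experiment B the Efnb3 level was 33, 12, 13 and 51 normalized reads in Cre+ hearts, against 182, 214, 268, 541 and 238 in controls. The highest Cre+ heart, the male, was thus below the lowest control, and the highest control was also a male. The means were 27.2 ± 18.6 normalized reads in Cre+ hearts (SD, n = 4) and 289 ± 145 in controls (SD, n = 5). On the log2(value + 1) scale with sex as a term the fold change was -3.34 (95% interval -4.13 to -2.54), or 10.1-fold lower. It was -3.23 with TMM scaling, -3.24 without control replicate 4 and -2.89 with the mitochondrial share as a covariate. The 2 tables were normalized separately and differ in age, library kit and the cells that lose Cap2, so the sizes in the experiments were not compared.

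**Figure D1:**
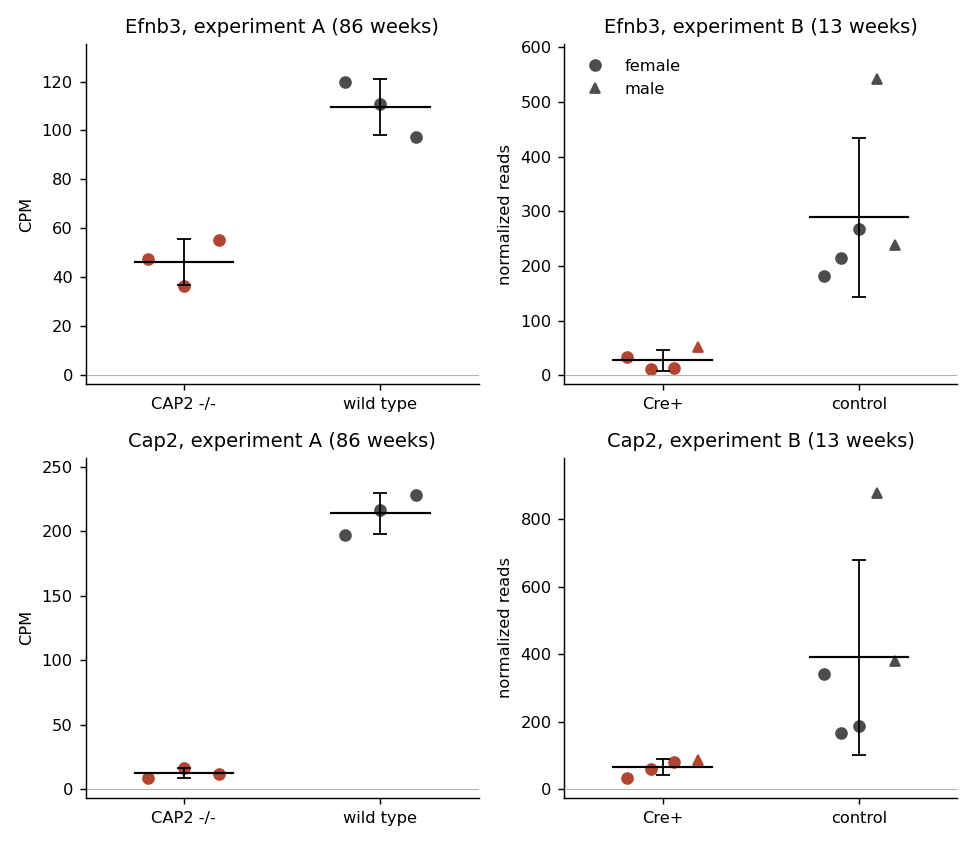
Levels of Efnb3 (top) and Cap2 (bottom) per library, in CPM for experiment A (left) and normalized reads for experiment B (right); circles are females, triangles males, bars the mean and its SD. Every CAP2 -/- library lies below every wild-type library and every Cre+ library below every control, and control replicate 4 has the highest Efnb3 (541) and Cap2 (878) of experiment B.

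The lower level of Efnb3 ran along the gene. Of its 5 exons, counted from the 5′ end, exon 1 had 1.38 CPM on average in CAP2 -/- hearts and 2.98 CPM in wild type, which is 46.4% of the wild-type level. Exon 2 had 7.90 CPM in CAP2 -/- hearts and 18.1 CPM in wild type (43.6%), and exon 5, the last, 34.6 CPM in CAP2 -/- hearts and 81.4 CPM in wild type (42.5%). Exon 4, of 105 bases, stood lowest relative to wild type at 25.5%, from a mean of 0.494 CPM in CAP2 -/- hearts and 1.94 CPM in wild type. In exon 3, of 93 bases, the groups overlapped, with 3.61, 0.526 and 1.91 CPM in CAP2 -/- hearts and 6.26, 4.57 and 3.30 CPM in wild type. The last exon, of 2178 bases, held 74.5% of the exon reads in CAP2 -/- hearts and 74.4% in wild type.

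**Figure D2:**
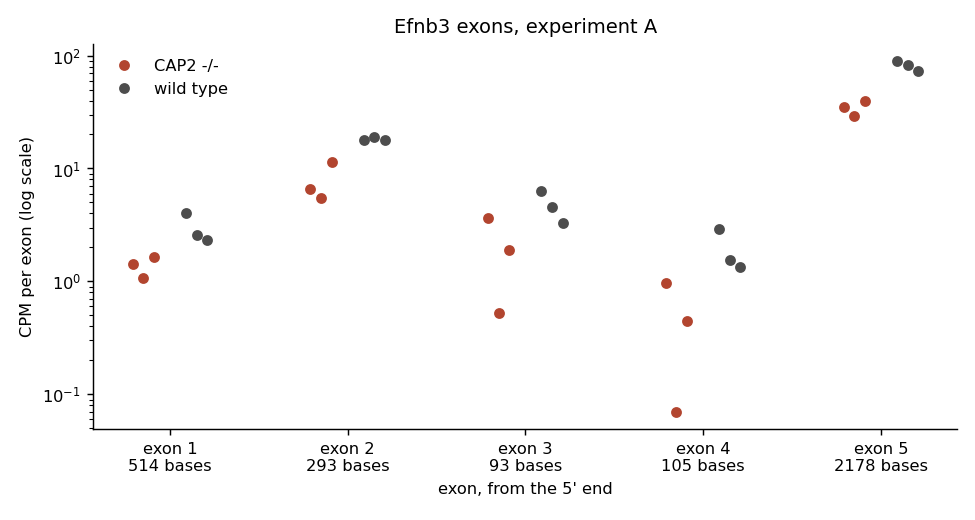
CPM per Efnb3 exon on a log axis for the 3 CAP2 -/- and the 3 wild-type libraries of experiment A, exons ordered from the 5′ end. The CAP2 -/- points lie below the wild-type points in exons 1, 2, 4 and 5, and the groups overlap in exon 3.

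Efnb1 and Efnb2 did not pass the test in either experiment. Efnb1 encodes ephrin-B1, which in the heart lies on the lateral membrane of cardiomyocytes. It stood at 24.0, 21.7 and 24.7 CPM in CAP2 -/- hearts and 26.6, 27.2 and 28.4 CPM in wild type. The groups were apart, though the log2 fold change of -0.22 (SE 0.14, 95% interval -0.51 to 0.07) did not pass the test (edgeR adjusted p = 0.641). In experiment B its range was 58 to 97 normalized reads in Cre+ hearts and 61 to 109 in controls, with a log2 fold change of 0.00 (95% interval -0.59 to 0.59, limma adjusted p = 0.999).

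Efnb2, the arterial ligand, stood at 21.8, 19.5 and 17.3 CPM in CAP2 -/- hearts, against 16.1 CPM at most in wild type, where the mean was 15.5 ± 0.57 CPM (SD, n = 3). Here each CAP2 -/- library lay above each wild-type library, and the log2 fold change of 0.33 (SE 0.16) did not pass the test (edgeR adjusted p = 0.484). In experiment B it ran from 64 to 162 normalized reads in Cre+ hearts and from 60 to 162 in controls (log2 fold change 0.01, 95% interval -0.78 to 0.80, limma adjusted p = 0.99).

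The make-up of the ephrin-B ligands therefore differed between the groups. With levels divided by exon length, Efnb3 gave 55.7% to 64.1% of the ephrin-B total in CAP2 -/- hearts and 74.6% to 78.9% in wild type. In experiment B its share was 7.57% to 31.7% in Cre+ hearts and 54.9% to 83.0% in controls. These shares rest on the Efnb3 difference by which the family was picked, so they too are a description.

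The ephrin-A ligands, anchored by lipid, showed overlapping groups throughout. Efna1 encodes ephrin-A1, made by endothelium and induced by inflammatory signals, and ran from 17.1 to 22.2 CPM in CAP2 -/- hearts and from 20.5 to 21.0 CPM in wild type (log2 fold change -0.05, 95% interval -0.38 to 0.27, edgeR adjusted p = 0.947). In experiment B it ran from 109 to 220 normalized reads in Cre+ hearts and from 129 to 249 in controls (log2 fold change -0.10, 95% interval -0.63 to 0.43, limma adjusted p = 0.826). Efna5 encodes ephrin-A5, an axon guidance ligand of the visual system. Its level was 5.14 to 7.56 CPM in CAP2 -/- hearts and 5.10 to 7.24 CPM in wild type, and 21 to 43 normalized reads in Cre+ hearts and 13 to 51 in controls. The log2 fold changes of Efna5 were -0.02 (95% interval -0.55 to 0.51) in experiment A and 0.34 (95% interval -0.38 to 1.06) in experiment B.

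Among the EphB receptors, Ephb3 passed the test in experiment A. EphB3 is a kinase receptor for ephrin-B ligands, known from cell sorting along the gut crypt. Its gene stood at 9.03, 8.11 and 8.94 CPM in CAP2 -/- hearts, against 15.7, 15.8 and 15.2 CPM in wild type. The groups lay well apart and each was tight, with means of 8.69 ± 0.51 CPM in CAP2 -/- hearts and 15.6 ± 0.33 CPM in wild type (SD, n = 3 each). Ephb3 fell by 0.84 on the log2 scale (SE 0.18, edgeR adjusted p = 0.021), and the authors' deposited table gives -0.84 with an adjusted p of 3.78e-04. The edgeR call was lost on leaving out CAP2 -/- replicate 2 or 3 or any wild-type replicate, with adjusted p from 0.0691 to 0.107, while the fold change stayed between -0.87 and -0.79.

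In experiment B the same gene stood at 90, 35, 57 and 15 normalized reads in Cre+ hearts and 58, 79, 101, 55 and 41 in controls. The groups overlapped, with the lowest value in the Cre+ male and a Cre+ female second only to 1 control. The log2 fold change was -0.80 (SE 0.35, limma adjusted p = 0.21).

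The bases upstream of Ephb3 are shown because it passed the test in experiment A. They run from chr16:21204545-21204754 on the plus strand (RefSeq window, GRCm38.p6), ending at the base before the start of the gene in GENCODE. Capitals mark 2 E-boxes (CANNTG).
Ephb3: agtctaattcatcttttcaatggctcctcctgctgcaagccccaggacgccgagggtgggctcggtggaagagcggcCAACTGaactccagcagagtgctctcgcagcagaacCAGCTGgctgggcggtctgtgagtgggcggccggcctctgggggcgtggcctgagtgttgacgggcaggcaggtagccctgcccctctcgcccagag
G and C made up 65.2% of this stretch. The study's title concerns MRTF and SRF, whose binding element is the CArG box, so that motif was searched. The search covered both strands in the 250 bases before each RefSeq start, for the 9 members with a sequence (11 windows). The 210 bases printed for Ephb3 are the part of such a window that lies before the GENCODE start. Efnb3 had no such sequence, so none of the counts below covers it. With 11 windows, a count of 0 for a motif this rare among all genes is not read as a lack of it. A CArG box was found in 0 of the 11 windows and in 1.5% of 32851 windows of all genes. The MEF2 motif was likewise found in 0 of the 11 and in 2.9% of all. The MCAT element (CATTCC) was found in the window of Efnb2 and in 12.6% of all, and an E-box (CANNTG) in those of Efnb2, Ephb3 and Ephb4 and in 66.2% of all. The motifs were searched separately, so matches of different motifs may overlap.

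Ephb1 and Ephb4 did not pass the test. Ephb1 encodes a receptor active in the guidance of retinal axons, and stood at 3.42, 3.46 and 6.89 CPM in CAP2 -/- hearts and 6.07, 5.91 and 6.05 CPM in wild type. CAP2 -/- replicate 3 had the highest level of all 6 libraries and the other CAP2 -/- libraries the lowest (log2 fold change -0.37, SE 0.29, edgeR adjusted p = 0.733). In experiment B Ephb1 stood at 25, 4, 11 and 21 normalized reads in Cre+ hearts and 26, 51, 54, 34 and 26 in controls. All Cre+ hearts were below all controls, by 1 normalized read at the closest, and the log2 fold change of -1.45 (SE 0.51) did not pass the test (limma adjusted p = 0.143).

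Ephb4, the venous receptor, ran from 49.6 to 82.2 CPM in CAP2 -/- hearts and from 61.4 to 93.7 CPM in wild type (log2 fold change -0.25, 95% interval -0.69 to 0.19, edgeR adjusted p = 0.753). In experiment B it ran from 248 to 411 normalized reads in Cre+ hearts and from 195 to 418 in controls (log2 fold change 0.10, 95% interval -0.51 to 0.71, limma adjusted p = 0.855). A gene on the opposite strand, Zan, overlaps Ephb4 but reached at most 0.473 CPM and 5 normalized reads.

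Of the EphA receptors, Epha4 was the one with lower means in both experiments. EphA4 binds ligands of both classes, ephrin-B3 among them, and relays the repulsion of axons at the spinal midline. Its gene stood at 28.4, 42.3 and 46.0 CPM in CAP2 -/- hearts, against 65.5, 40.7 and 74.5 CPM in wild type. Wild-type replicate 2 lay among the CAP2 -/- values, and the log2 fold change of -0.63 (SE 0.25) did not pass the test (edgeR adjusted p = 0.414). It passed without wild-type replicate 2 (log2 fold change -0.84, edgeR adjusted p = 0.029) and with no filter on low counts (log2 fold change -0.65, edgeR adjusted p = 6.48e-04). The authors' deposited table gives -0.64 with an adjusted p of 0.0988.

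In experiment B Epha4 stood at 37, 19, 36 and 24 normalized reads in Cre+ hearts, against 59, 49, 105, 332 and 62 in controls. All Cre+ hearts were below all controls, among which replicate 4 stood far above the rest. The log2 fold change of -1.59 (SE 0.50) did not pass the test (limma adjusted p = 0.116), and without control replicate 4 it was -1.21 (limma adjusted p = 0.0654).

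Epha7 encodes a receptor that also has shortened forms without the kinase. Its gene ran from 5.78 to 7.02 CPM in CAP2 -/- hearts and from 5.11 to 6.20 CPM in wild type, and from 10 to 29 normalized reads in Cre+ hearts and from 5 to 33 in controls. The groups overlapped in both, with log2 fold changes of 0.17 (95% interval -0.31 to 0.64) in experiment A and 0.14 (95% interval -1.01 to 1.29) in experiment B.

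**Figure D3:**
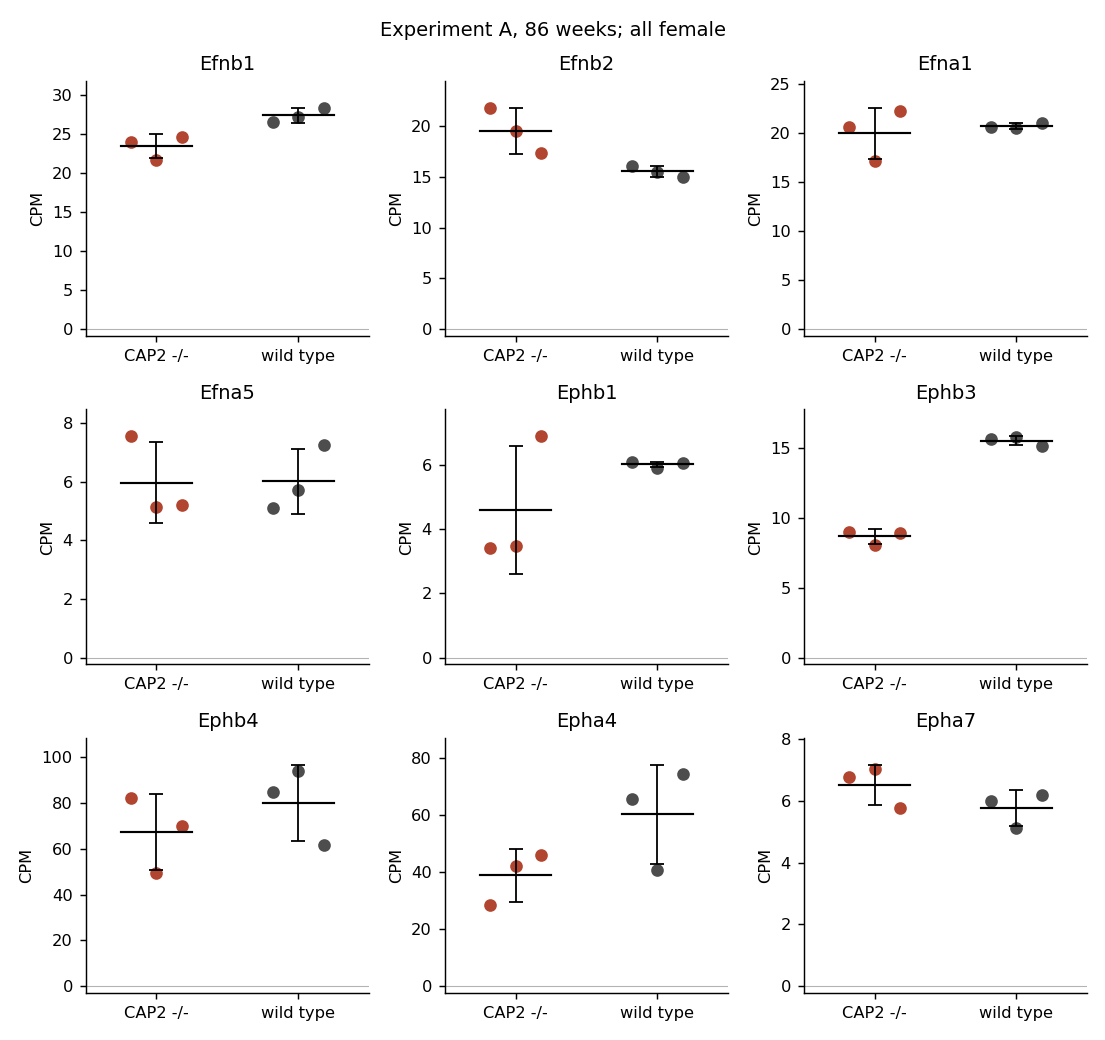
CPM per library of the 9 members other than Efnb3 in experiment A, CAP2 -/- left and wild type right, with mean and SD. Ephb3 and Efnb1 lie wholly lower and Efnb2 wholly higher in CAP2 -/- hearts, and the groups overlap in the other panels.

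**Figure D4:**
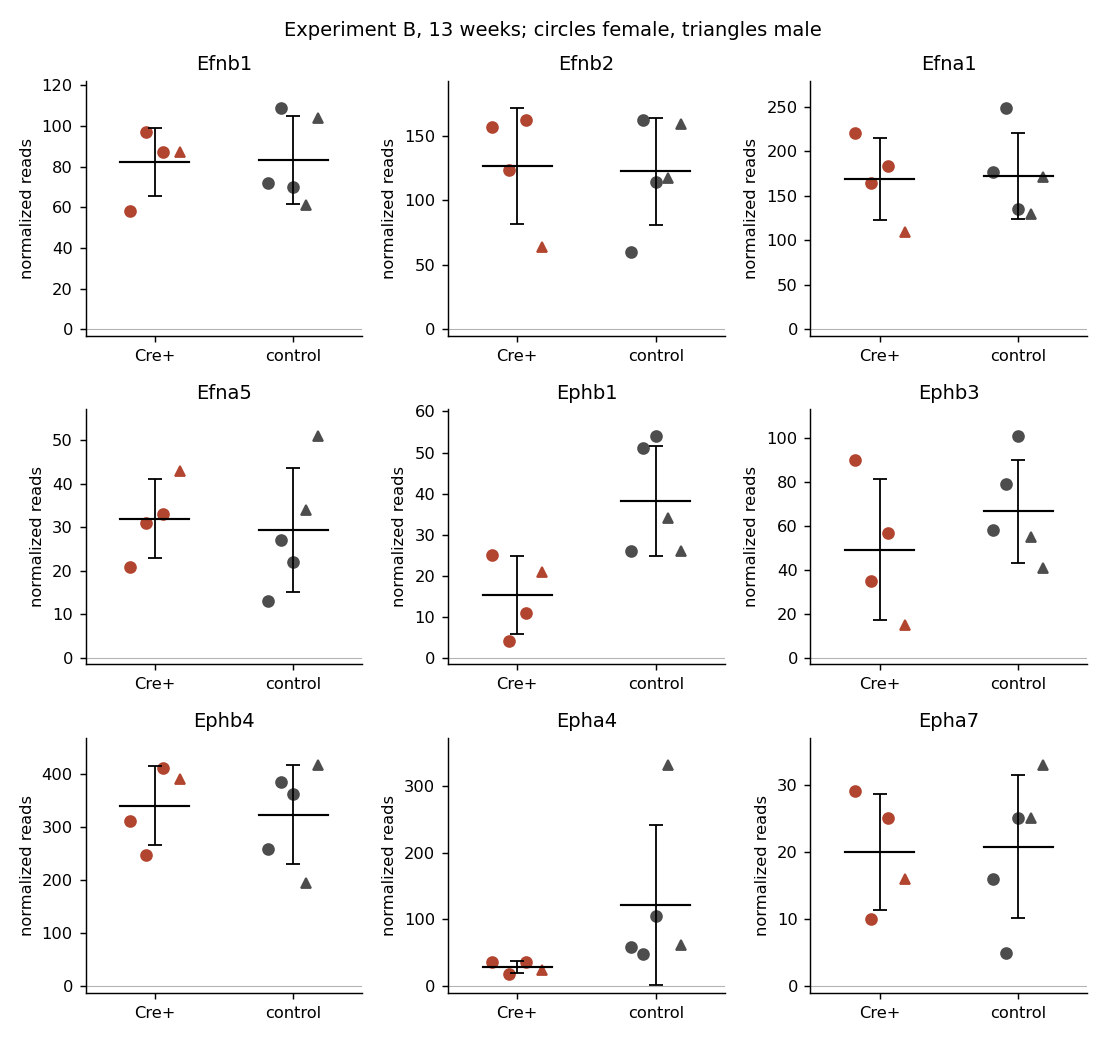
Normalized reads per library of the same 9 members in experiment B, Cre+ left and control right, with mean and SD; circles are females and triangles males. The groups are apart for Ephb1 and Epha4, both lower in Cre+ hearts, and control replicate 4 stands at 332 for Epha4.

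Counted over the family, all 10 members were tested in both experiments. Efnb3 is left out of the counts that follow, since its difference chose the family. In experiment A, 1 of the 9 other members passed an adjusted p under 0.05 with edgeR (Ephb3, lower), where 1.35% of all genes tested passed. In experiment B, 0 of 9 passed with limma, where 1.88% of all genes tested passed. At an unadjusted p under 0.05 there were 2 of 9 in experiment A, beside 10.4% of all genes tested, and 3 of 9 in experiment B, beside 22.1% of all genes tested. The groups did not overlap for 3 of 9 in experiment A, 2 lower and 1 higher, beside 15.6% of all genes tested. They did not overlap for 2 of 9 in experiment B, both lower, beside 8.66% of all genes tested. The members were chosen with these contrasts known, so nothing is read from these shares. These 9 members had a median log2 fold change of -0.22 in experiment A and 0.00 in experiment B, against 0.01 and -0.12 over all genes in those experiments.

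**Figure D5:**
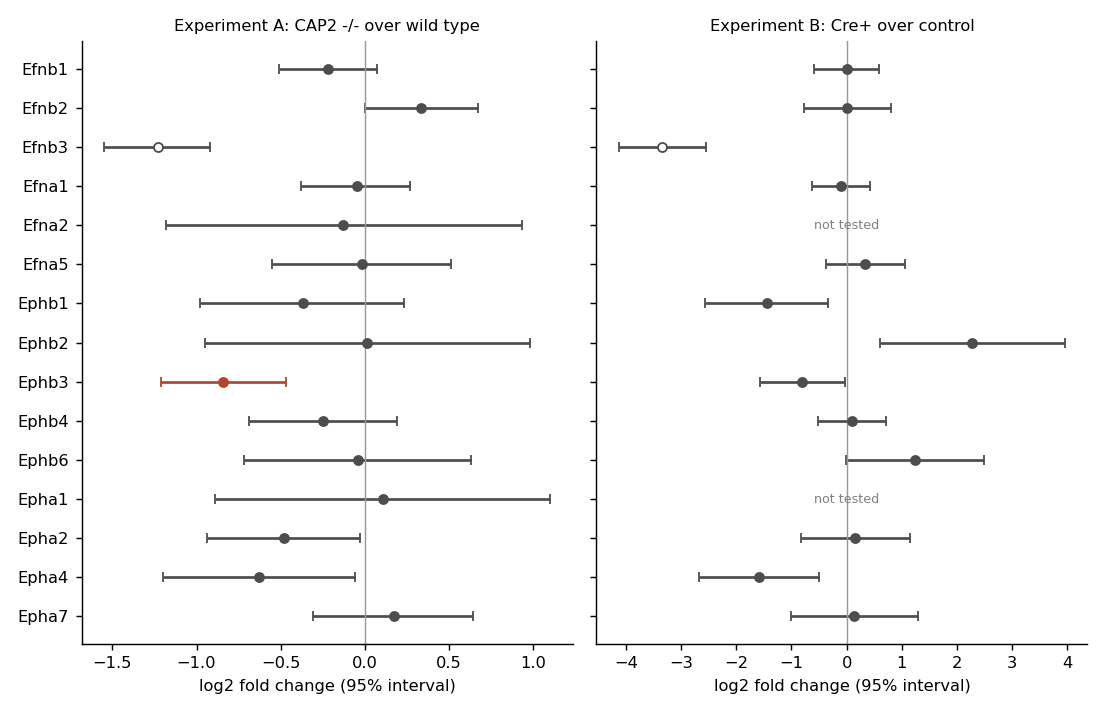
Log2 fold changes with 95% intervals of the Eph and ephrin genes tested, CAP2 -/- over wild type (left, edgeR) and Cre+ over control (right, limma on log2(value + 1)); red marks an adjusted p under 0.05, the open point is Efnb3, shown without a test, and a gene not tested in experiment B is marked as such. Efnb3 lies lowest in both, at -1.23 and -3.34, and Ephb3 in experiment A is the red point.

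Among the members, levels per kilobase of exon put Efnb3 first in wild-type hearts. In CAP2 -/- hearts Efnb3 (14.6 CPM per kb) and Ephb4 (14.5) stood first with overlapping ranges, followed by Efna1 (10.9), whose range overlapped that of Ephb4, and Efnb1 (6.80). In wild type Efnb3 (34.3 CPM per kb) was followed by Ephb4 (17.2), Efna1 (11.3) and Efnb1 (7.94), and the ranges of neighbours among these 4 genes were apart. The lowest members were Epha7 (0.660 CPM per kb) and Ephb1 (0.655) in CAP2 -/- hearts, whose ranges overlapped, and Ephb1 (0.858) and Epha7 (0.584) in wild type, whose ranges were apart.

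In Cre+ hearts Efna1 (92.3 normalized reads per kb) and Ephb4 (73.4) stood first with overlapping ranges, and Efnb3 (8.56) had a range that overlapped those of its neighbours in the order, Efnb2 (18.5) and Efna5 (7.94). In control hearts Efna1 (94.1), Efnb3 (90.7) and Ephb4 (69.7) stood first, and their neighbouring ranges overlapped. Epha7 and Ephb1 had the lowest means, at 2.02 and 2.18 normalized reads per kb in Cre+ hearts, where their ranges overlapped, and at 2.10 and 5.46 in controls, where their ranges were apart.

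The rest of the family was mostly low in the heart. Of the other 12 Eph and ephrin genes, 5 were tested in experiment A and 3 in experiment B, and none passed with edgeR or limma. At an unadjusted p under 0.05 there was 1 in each, Epha2 in experiment A and Ephb2 in experiment B, beside 10.4% and 22.1% of all genes tested in those experiments. Epha2, an ephrin-A receptor of epithelia and endothelium, stood at 12.2, 7.53 and 12.7 CPM in CAP2 -/- hearts and 13.8, 17.8 and 13.8 CPM in wild type, with the groups apart (log2 fold change -0.48, SE 0.21, edgeR adjusted p = 0.436). In experiment B its groups overlapped (log2 fold change 0.15, 95% interval -0.83 to 1.14). The remaining genes tested in experiment A were Efna2 (log2 fold change -0.13), Epha1 (0.11), Ephb2 (0.01) and Ephb6 (-0.04). Epha1 overlaps Zyx on the opposite strand, a gene of up to 102 CPM and 1292 normalized reads, and no source used here gives the strand setting of the counts, so its level is uncertain.

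Ephb2, a kinase receptor for ephrin-B ligands, stood at 11, 16, 19 and 20 normalized reads in Cre+ hearts and 0, 1, 8, 2 and 16 in controls. One control lay within the Cre+ range, and the log2 fold change of 2.28 (SE 0.76) did not pass the test (limma adjusted p = 0.13). Ephb6, a receptor whose kinase is inactive, stood at 34, 22, 39 and 38 normalized reads in Cre+ hearts and 9, 18, 20, 3 and 32 in controls (log2 fold change 1.24, SE 0.57, limma adjusted p = 0.23). Epha10 was listed at 0 in all 9 libraries of experiment B.

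Genes that relay Eph and ephrin signals were listed as 22 on the receptor side and 13 on the ephrin side or in shedding. On the receptor side all 22 were tested in both experiments and none passed with edgeR in experiment A or with limma in experiment B. On the ephrin side 12 were tested in experiment A and 10 in experiment B, and again none passed. The count was also 0 with DESeq2 in experiment A and with TMM scaling in experiment B. At an unadjusted p under 0.05, experiment A had 2 genes of each list, beside 10.4% of all genes tested. Experiment B had 6 of the receptor side and 2 of the ephrin side, beside 22.1% of all genes tested. The median log2 fold change of the receptor side was -0.03 in experiment A and -0.29 in experiment B, and that of the ephrin side was -0.01 and -0.20 in those experiments, beside 0.01 and -0.12 over all genes.

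On the receptor side, Inppl1, which encodes the lipid phosphatase SHIP2 that binds EphA2, had the smallest p in both experiments. It averaged 196 CPM in CAP2 -/- hearts and 255 CPM in wild type, with the groups apart (log2 fold change -0.38, SE 0.11, edgeR adjusted p = 0.144). In experiment B it averaged 389 normalized reads in Cre+ hearts and 782 in controls, with the groups overlapping (log2 fold change -1.15, SE 0.29, limma adjusted p = 0.0698). The next smallest were Fyn, a Src family kinase, in experiment A (log2 fold change -0.32, edgeR adjusted p = 0.335), and Ngef, the exchange factor ephexin, in experiment B (log2 fold change 2.21, limma adjusted p = 0.0895).

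On the ephrin side, Dvl2, a Dishevelled adaptor, had a log2 fold change of -0.32 (edgeR adjusted p = 0.379) and Grip2, an adaptor with PDZ domains, one of 0.54 (edgeR adjusted p = 0.386) in experiment A. In experiment B Grip2 had -1.63 (limma adjusted p = 0.17) and Tjp1, a tight junction scaffold, -0.84 (limma adjusted p = 0.212). Dvl2 averaged 432 CPM in CAP2 -/- hearts and 538 CPM in wild type, and 35.5 normalized reads in Cre+ hearts and 27.6 in controls. Its log2 fold change in experiment B was 0.23 (limma adjusted p = 0.666). Genes that overlap Dvl2 were not looked up and the strand setting is not given, so its level is uncertain.

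The 3 males and 6 females of experiment B allowed a comparison that the choice of genes did not use. No family member passed with limma, beside 0.0247% of all genes tested. These 3 genes were Xist, lower in males, and Ddx3y and Eif2s3y, both on the Y chromosome and higher in males. At an unadjusted p under 0.05 there were 3 family members (Efnb3, Ephb3 and Efna5) and 1791 genes in all, or 14.8% of all genes tested. The means and ranges by sex given here pool Cre+ and control hearts, and Cre+ made up 3 of the 6 females and 1 of the 3 males. They therefore mix sex with group, while the log2 differences have group as a term. Efnb3 averaged 277 normalized reads in males and 120 in females, with ranges of 51 to 541 in males and 12 to 268 in females (log2 difference with group as a term 1.02, SE 0.38, limma adjusted p = 0.261). Ephb3 averaged 37.0 in males and 70.0 in females (log2 difference -1.14, SE 0.37, limma adjusted p = 0.206). Efna5 ran from 34 to 51 in males and from 13 to 33 in females, so that the sexes were apart (log2 difference 0.87, SE 0.34, limma adjusted p = 0.281). In experiment A all hearts were female.

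The genes whose pattern was most like that of Efnb3 were ranked by the mean of its 2 Pearson correlations, over the 6 libraries of experiment A and the 9 of experiment B, among 11440 genes. They were Ggct (mean r 0.958), Impa2 (0.947), Fkbp4 (0.946), Dhrs7c (0.942) and Gal3st3 (0.936). All 5 were lower without overlap in both experiments. Over all genes tested, the groups did not overlap for 15.6% in experiment A and 8.66% in experiment B. Efnb3 itself was lower without overlap in both, so the ranking favours such genes and nothing is read from this count. Gal3st3 averaged 9.39 CPM in CAP2 -/- hearts and 18.9 CPM in wild type, and 4.00 normalized reads in Cre+ hearts and 29.6 in controls. Cap2 itself ranked 37 (mean r 0.89). Of the members Ephb1 ranked 292, Epha4 481 and Ephb3 852. For Ephb3 the correlation was 0.98 in experiment A and 0.279 in experiment B. Libraries of a group share their genotype, so the group difference enters each of these correlations, which carry no p.

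In RNA from heart tissue, fewer cells of a type and less RNA per cell cannot be told apart. The endothelial markers, which bear on Efnb2, Ephb4 and Efna1, gave no call among 8 listed genes, nor among 6 arterial and 4 venous ones, in either experiment with edgeR or limma. At an unadjusted p under 0.05 there was 1 endothelial gene in experiment A, and 1 arterial and 2 venous genes in experiment B, beside 10.4% and 22.1% of all genes tested in those experiments. The 8 endothelial markers summed to 944 to 979 CPM in CAP2 -/- hearts and 949 to 1046 CPM in wild type, and to 4385 to 6378 normalized reads in Cre+ hearts and 3626 to 7743 in controls. Of 8 cardiomyocyte markers none passed in experiment A. Pln alone passed in experiment B, lower, where 1.88% of all genes tested passed. At an unadjusted p under 0.05 there were 2 of 8 in experiment A and 1 of 8 in experiment B, beside those 10.4% and 22.1%. Of the 7 Schwann and neuronal markers, a tissue where several ephrins act, 4 were tested in experiment A and 5 in experiment B. Tubb3 alone passed, higher in CAP2 -/- hearts with edgeR, where 1.35% of all genes tested passed. In experiment B none passed, with log2 fold changes from -0.4 to 2.8 (smallest limma adjusted p = 0.0762). The 7 markers summed to 21.4 to 23.2 CPM in CAP2 -/- hearts and 18.2 to 22.6 CPM in wild type. In experiment B they summed to 181 to 252 normalized reads in Cre+ hearts and 57 to 304 in controls.

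Levels of further marker lists were as follows. Atrial markers, 6 genes with Nppa, summed to 83867 to 175240 normalized reads in Cre+ hearts and 105 to 9895 in controls. Without Nppa they summed to 491 to 43024 in Cre+ hearts and 105 to 7384 in controls. Limma called 0 of 6, where 1.88% of all genes tested passed. At an unadjusted p under 0.05 there were 3 of 6, beside 22.1% of all genes tested. Their median log2 fold change was 4.61, against -0.12 over all genes. In experiment A Nppa, which encodes a natriuretic peptide, rose (edgeR adjusted p = 3.07e-10), where 1.35% of all genes tested passed. None of the other 4 tested passed. Of those 4, 3 had an unadjusted p under 0.05, beside 10.4% of all genes tested. Log2 fold changes of the 4 ran from -0.38 to 2.97 (smallest edgeR adjusted p = 0.0612). The 6 markers summed to 3848 to 4586 CPM in CAP2 -/- hearts and 114 to 156 CPM in wild type, and without Nppa to 36.7 to 41.6 CPM in CAP2 -/- hearts and 39.9 to 41.4 CPM in wild type. Skeletal muscle markers, 6 genes, summed to 1103 to 3306 normalized reads in Cre+ hearts and 40 to 110 in controls. The 4 tested in experiment B (Casq1, Tnni2, Tnnt3 and Atp2a1) all passed with limma, higher, where 1.88% of all genes tested passed. In experiment A the 6 markers summed to 38.5 to 50.1 CPM in CAP2 -/- hearts and 11.9 to 21.3 CPM in wild type. All 6 were tested there and Casq1 alone passed with edgeR, higher, where 1.35% of all genes tested passed. Fibroblast markers, 6 genes with no call, summed to 6754 to 14809 normalized reads in Cre+ hearts and 2347 to 9455 in controls. In experiment A they summed to 760 to 953 CPM in CAP2 -/- hearts and 597 to 708 CPM in wild type, without overlap. At an unadjusted p under 0.05 there were 1 of 6 in experiment A and 2 of 6 in experiment B. Over all genes tested those shares were 10.4% and 22.1%. The 6 had a median log2 fold change of 0.09 in experiment A and 0.64 in experiment B. Of 7 smooth muscle and pericyte markers Abcc9 alone passed, lower in Cre+ hearts with limma, where 1.88% of all genes tested passed. At an unadjusted p under 0.05 there were 2 of the 7 in each experiment, beside 10.4% and 22.1% of all genes tested. The 5 macrophage and 5 erythroid markers gave no call in either experiment. No marker of these lists was at 0 in all libraries. The part of these lists in the Efnb3, Ephb1 and Epha4 values was not tested.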

How the data were processed

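Per the labels' protocols, heart RNA was prepared with the Ion Total RNA-Seq kit for experiment A and a stranded TruSeq mRNA kit for experiment B. The submitters' processing notes name mm10, STAR 2.6.0c and DESeq, with no role. No source used here states the annotation, the counting tool or its strand setting. The values the authors deposited for experiment A are estimated counts by gene and exon; 26.5% of the gene values above 0 are within 1e-06 of a whole number. Their deposited comparison holds a mean normalized signal, log2 fold changes and p-values. For experiment B the authors deposited normalized reads in whole numbers, a score here because the normalization is not stated. Their depth is unknown. Of 16 labelled samples 15 had values, and the fifth Cre+ library was not analysed here.

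Identifiers were placed with GENCODE M21 on mm10 (36308 of 38087 found in experiment A, 54165 of 54232 in B), and levels per kilobase use its merged exons. Efna5 has a further gene row in experiment A, at 0 in every library, which was left out of its values. Rounded estimated counts went into edgeR 4.0.16 under R 4.3.3 (TMM, filterByExpr, robust quasi-likelihood, 16297 genes). Experiment B was tested with limma 3.58.1 (limma-trend, robust, over log2(value + 1), mean of at least 10, sex as a term, 12141 genes); this scale understates the change of low genes. P-values were adjusted by Benjamini-Hochberg over all genes, at 0.05. DESeq2 1.42.0 was an alternative. Both fits were tested on simulated data. CPM are scaled to TMM-adjusted totals.

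The members, gene lists, tests and the naming rule were chosen with earlier results of these data known. The rule names all 10 members, the family genes tested, the called genes of each signalling list or otherwise the 2 with the smallest p, and the 5 genes most like Efnb3. One signalling list is not reported here. Genes that could not pass a low-value filter had no test. Within groups of experiment A, replicates differed beyond sampling noise (chi-square per gene 10.7 to 29.1), so none was counted as a repeat reading of the same library. This cannot tell separate animals from separate preparations of the same heart. Promoter windows are RefSeq's.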

Additional observations from a re-analysis of the deposited data

Results flagged for a closer look

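Efnb3 in control replicate 4 of experiment B stood at 541 normalized reads, far from the other 4 controls, which ran from 182 to 268. Epha4 in the same library stood at 332 normalized reads, against 49 to 105 in the other 4 controls. Cap2 was also highest there, at 878 normalized reads. The library is 1 of 2 male controls, and the other had 238 normalized reads of Efnb3, 62 of Epha4 and 381 of Cap2. Without it the log2 fold changes of Cre+ over control were -3.24 for Efnb3 and -1.21 for Epha4, and the male over female difference of Epha4 was -0.20, against 0.56 with it. The flags came from Dixon's outlier test on the normalized reads, with a critical value of 0.71 for 5 libraries. In all, 20 groups of member values were examined this way, and chance flags about 1 in 20 groups. The log2 scale used by the fits of experiment B, on which high values stand out less, was not examined. Whether the 2 values share a source was not tested.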

How the results depend on the processing

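Efnb3 was lower in all 11 alternatives of experiment A (log2 fold change -1.38 to -1.08) and all 18 of experiment B (-3.58 to -2.89). The alternatives reuse the libraries by which Efnb3 was chosen, and its groups were apart in both experiments. Its direction was thus set in advance, and these ranges only describe how far its size moved. Of 583 alternative values of members, family genes, Cap2 and signalling counts, 563 stayed on their side of the threshold and within their spread, 8 lost a call, 2 gained one and 10 moved further. A sign changed in 66, all of them uncalled. The calls lost were those of Ephb3 in experiment A (5 libraries left out in turn, and the replicate block, adjusted p = 0.071) and of Cap2 in experiment B, without Cre+ replicate 4 (0.0922) or control replicate 1 (0.0687).

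Counts of called genes moved further. Experiment A gave 220, against 512 with no filter, 402 with DESeq2 and 126 to 275 with a library left out, the lower end without CAP2 -/- replicate 3. Experiment B gave 228, against 346 with no filter, 36 with a covariate for the mitochondrial share and 39 to 695 with a library left out, without Cre+ replicate 2 and without Cre+ replicate 1. Of the calls of experiment B 49.6% were lower, against 30.0% of 237 with TMM scaling and 37.0% of 335 with quantile normalization. Male against female gave 3, and 3 to 5 with a library left out, 5 without control replicate 4. The cause was not tested. Same-numbered libraries did not all deviate together (correlations -0.166 to -0.0311 in experiment A, -0.113 to 0.24 in B), none correlated best with its own number, and the replicate block gave 394 calls in experiment B, where it changed no member's call, and a count within 1.5 times the one reported in experiment A.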
